A study of Mus musculus with 4 samples.

Results

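Slc4a1, Epb42, Epb41, Ank1, Sptb, Rhag, Kel and Rhd encode the anion exchanger, skeletal proteins and blood group proteins of the red cell membrane. They were described in mouse bone marrow cultures grown in space or on the ground. The members were all probe sets of the deposited intensity table whose single gene symbol in the platform annotation was 1 of these 8 names. The rule gave 14 of 45101 probe sets, which covered 7 of the 8 genes: 4 probe sets for Ank1, 3 for Slc4a1, 2 each for Epb42 and Sptb, and 1 each for Rhag, Kel and Rhd. No probe set carried Epb41 as its single symbol in the annotation used, so this gene, which encodes the protein that tightens spectrin to actin, was not analysed here.

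The study asked how macrophages differentiate in culture during space flight. Both groups came from 1 pool of marrow of 21 C57BL/6 mice older than 8 weeks. The red cells were lysed, and the remaining cells were kept with 1.5 µg/ml recombinant macrophage colony-stimulating factor (M-CSF), which drives marrow progenitors towards macrophages, in glass barrels at 37 °C. The space flight group flew on a shuttle and was lysed with guanidinium on day 15 of culture (flight day 14), and the ground control group stayed on Earth under a parallel temperature and mixing schedule. Each group had 2 arrays, each with RNA of a separate pool of 2 barrels. All cultures shared the mice, the growth factor and the addition of medium on day 6, so the spread between arrays covers cultures and array work, not animals.

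The membrane of a red cell is held up by a net of spectrin below it. Ankyrin ties the net to the anion exchanger band 3, protein 4.2 steadies that link, and protein 4.1 joins spectrin to short actin filaments. The Rh proteins sit in the same ankyrin complex, and the Kell protein stands in the membrane with its partner XK. In marrow, erythroid precursors switch these genes on as they mature, and macrophages are known to use other, more widely expressed spectrins and ankyrins.

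In these cultures 4 of the 5 member probe sets that were not dim stood higher in space flight, 2 of them of Slc4a1. Over all 14 members 8 stood higher and 6 lower, where 22663 of 45037 probe sets stood higher and 22373 lower. No member passed the test across all probe sets. A probe set is called dim here when its mean over the 4 arrays lay below 6.40 on the log2 scale, the median over all probe sets. The difference was 2.17 ± 0.45 on the log2 scale for the first Slc4a1 probe set (SE, n = 2 arrays per group), or 4.48-fold, and 0.88 ± 0.44 for the second, or 1.83-fold. It was 0.80 ± 0.45 for the first Ank1 probe set, 0.80 ± 0.52 for Rhd and −0.75 ± 0.70 for the first Sptb probe set (SE). Of the 9 dim members, 1 of Epb42 stood at 1.92 ± 0.52, Rhag at 1.00 ± 0.60, the second of Sptb at −0.99 ± 0.68 and Kel at −0.03 ± 0.64 (SE). Other dim probe sets of Epb42, Ank1 and Slc4a1 stood at −0.92, −1.31 and −1.30, and the 2 remaining ones of Ank1 had differences above 0. Here and throughout, a difference is space flight minus ground control in quantile normalized log2(intensity + 16), which understates changes of dim probe sets. Marrow cultures are mixtures, and in bulk RNA fewer cells of a type and less RNA per cell cannot be told apart.

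At an adjusted p under 0.05 (limma, Benjamini-Hochberg over 45037 probe sets that are not controls), 0 of the 14 member probe sets passed, and 0 of all probe sets passed (0%). At an unadjusted p under 0.05, limma had 2 member probe sets higher and 1 lower, where 4.14% of all probe sets were higher and 4.6% were lower, 8.74% in all. Both space flight arrays lay above both ground control arrays for 7 of the 14 members, against 19.1% of all probe sets, and below them for 4, against 19.4%. Without overlap were thus 11 of 14, against 38.5% of all probe sets, and the groups overlapped for the other 3. The member counts of 7, 4 and 3 were the same under each of 3 other array scalings and 2 other pseudocounts, while with each array shifted to a common median 14.3% of all probe sets lay above and 24.5% below. Probe sets of 1 gene share their target, so the 14 are not 14 independent observations. The median difference was 0.62 over the 14 and 0.0048 over all probe sets. With 2 arrays a side, the smallest two-sided p of an exact permutation test is 0.333.

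**Figure D1:**
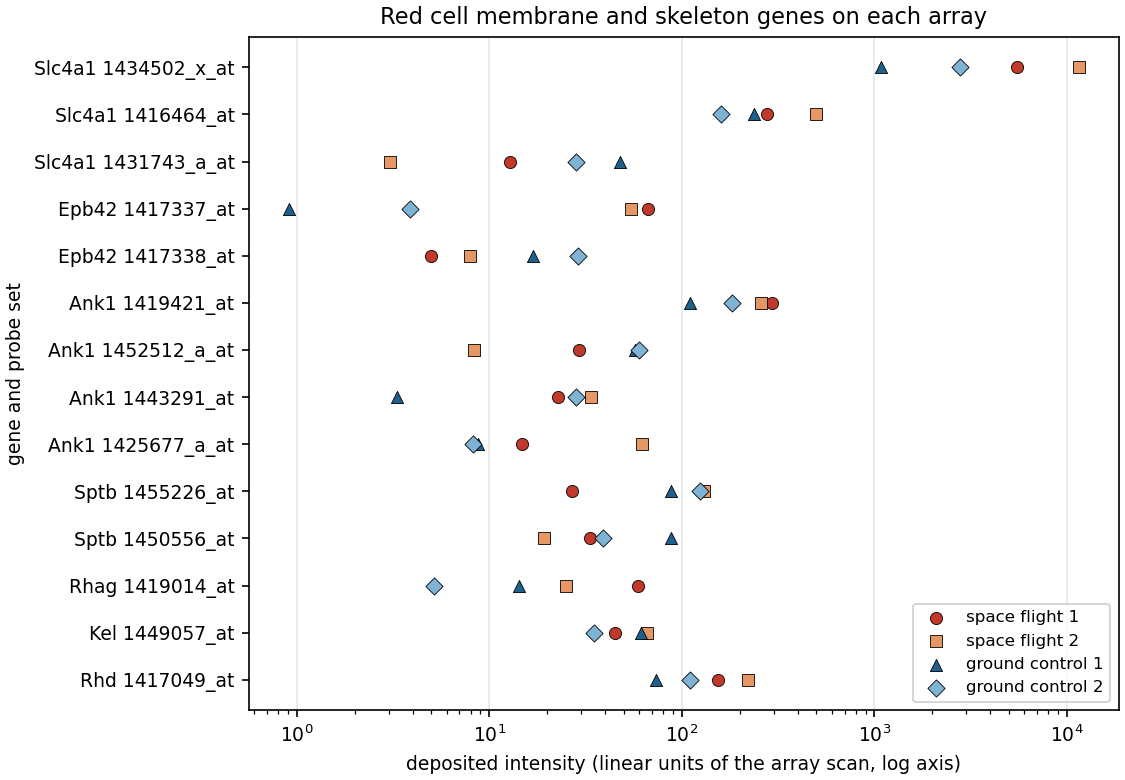
Deposited intensity (log axis) of the 14 probe sets on each of the 4 arrays, with space flight in red and orange and ground control in blues. For the upper Slc4a1 probe set both space flight arrays, at 5472 and 11568, lie above both ground control arrays; several other probe sets lie below 100 on every array.

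The RNA had an integrity number of 3 on every array, per the labels, and the arrays differed in signs of RNA quality. For the Gapdh control, 3′ signal over 5′ signal came to 15.2 on space flight array 2 and to 3.33 to 4.13 on the other 3 arrays, while that of Actb ran from 2.30 to 4.91. For the Tfrc control it was lowest on space flight array 2, at 3.47, and highest on ground control array 2, at 7.84. The replicate arrays differed by an SD of 0.94 across probe sets in space flight and 0.73 in ground control. The part of RNA quality in the values below was not tested. Of the 14 members 9 were dim: 3 of Ank1, both of Epb42, and 1 each of Slc4a1, Sptb, Rhag and Kel.

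Slc4a1 encodes band 3, the protein that exchanges chloride for bicarbonate across the red cell membrane and anchors the skeleton. On probe set 1434502_x_at the deposited intensity was 5472 and 11568 in space flight and 1088 and 2791 in ground control. Both space flight arrays were above both ground control arrays, array 2 of each group being the higher one. On the normalized log2 scale the means were 12.90 ± 0.68 and 10.74 ± 0.98 (SD, n = 2 per group). The difference of 2.17 had a 95% interval of 1.14 to 3.19 and did not pass the test over all probe sets (limma adjusted p = 0.327; unadjusted p = 0.00111, rank 151 of 45037). The name ending in x marks the maker's class of probe sets that can also bind other transcripts. With 1 array left out the difference ran from 1.50, without ground control replicate 1, to 2.84, without ground control replicate 2.

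The second Slc4a1 probe set, 1416464_at, is of the class for a single transcript. Its intensities were 278 and 499 in space flight and 237 and 160 in ground control. The groups again did not overlap, but space flight array 1 lay close to ground control array 1. The difference was 0.88 ± 0.44 (SE; 95% interval −0.12 to 1.87; limma adjusted p = 0.621). Space flight array 2 carried most of it, since it was 0.45 without space flight replicate 2 and 1.30 when replicate 1 was left out instead. The third, 1431743_a_at, was dim and ran the other way, with intensities of 12.8 and 3.04 in space flight and 47.5 and 28.2 in ground control. Its difference was −1.30 ± 0.55 (SE; limma adjusted p = 0.552), which was 1 of the 3 members at an unadjusted p under 0.05. The 3 probe sets of Slc4a1 thus differed in sign as well as in size.

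Epb42 encodes protein 4.2, a relative of the transglutaminases without enzyme activity that binds band 3 and ankyrin. Probe set 1417337_at had intensities of 66.8 and 54.7 in space flight and 0.909 and 3.86 in ground control. Both ground control values were near the bottom of the scale, and both space flight values stood clear of them. The normalized means were 6.14 ± 0.40 and 4.22 ± 0.16 (SD, n = 2 per group), and the difference of 1.92 had a 95% interval of 0.74 to 3.11 (limma adjusted p = 0.399; unadjusted p = 0.00546). Because the ground control values were so low, its size depended on the pseudocount, at 4.04 with 1 added and 0.84 with 64 added before the logarithm. The second probe set, 1417338_at, gave 4.97 and 7.90 in space flight and 17.0 and 28.8 in ground control. There the space flight arrays were the lower ones, by −0.92 ± 0.44 (SE; limma adjusted p = 0.604). Both Epb42 probe sets were dim, and they pointed in opposite directions with no overlap between groups in either.

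**Figure D2:**
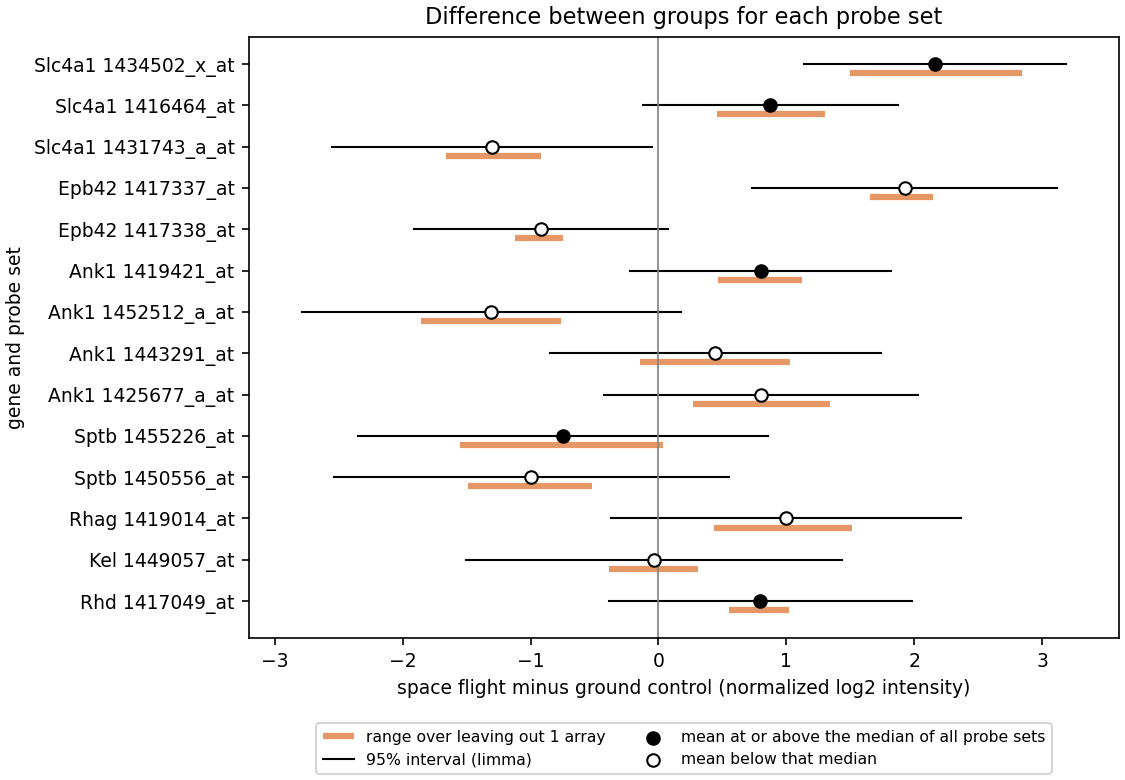
Space flight minus ground control in normalized log2 intensity for the 14 probe sets, with the 95% interval from limma (black line) and the range over leaving out each array in turn (orange). Filled points are probe sets at or above the median mean of all probe sets and open points are dim ones; the interval of the upper Slc4a1 probe set runs from 1.14 to 3.19, and those of most other probe sets include 0.

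Ank1 encodes ankyrin-R, the adaptor that ties band 3 to beta-spectrin. On 1419421_at, its only probe set that was not dim, the intensities were 293 and 258 in space flight and 110 and 182 in ground control. Both space flight values exceeded both ground control values, and ground control array 2 lay between. The normalized means were 8.17 ± 0.11 and 7.37 ± 0.47 (SD, n = 2 per group), with a difference of 0.80 ± 0.45 (SE; 95% interval −0.22 to 1.82; limma adjusted p = 0.668). Leaving out 1 array gave 0.46 to 1.12. Of the 3 dim probe sets, 1425677_a_at had 14.7 and 62.3 in space flight and 8.69 and 8.23 in ground control, a difference of 0.80 ± 0.54 (SE). On 1452512_a_at the order was reversed, with 29.1 and 8.37 in space flight and 56.8 and 59.7 in ground control, a difference of −1.31 ± 0.65 (SE). The groups overlapped on 1443291_at, where ground control array 1 stood alone at 3.30 and the other 3 arrays had 22.8 to 33.8. The ending in a marks a class that reads several transcripts of 1 gene, and the files do not say which ankyrin transcripts each probe set reads.

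Sptb encodes the beta-spectrin of red cells, a main part of the net. Probe set 1455226_at had intensities of 26.8 and 131 in space flight and 87.8 and 123 in ground control. The groups overlapped, with space flight array 1 the lowest and space flight array 2 the highest of the 4 deposited intensities. On the normalized log2 scale ground control array 2 was the highest, at 7.20, with space flight array 2 at 7.04. Its difference of −0.75 ± 0.70 (SE; limma adjusted p = 0.801) turned to 0.036 without space flight replicate 1. Probe set 1450556_at was dim, with 33.3 and 19.1 in space flight and 87.9 and 39.1 in ground control. Both space flight arrays were lower there, by −0.99 ± 0.68 (SE; 95% interval −2.54 to 0.55; limma adjusted p = 0.728).

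Rhag encodes the Rh-associated glycoprotein, an ammonia channel without which Rh proteins do not reach the membrane, and Rhd encodes the mouse Rh blood group protein. Rhd, on 1417049_at, had intensities of 153 and 220 in space flight and 73.6 and 110 in ground control. Both space flight values lay above both ground control values. The normalized means were 7.63 ± 0.32 and 6.83 ± 0.32 (SD, n = 2 per group), the difference was 0.80 ± 0.52 (SE; 95% interval −0.38 to 1.98; limma adjusted p = 0.714), and leaving out 1 array gave 0.55 to 1.02. Rhag, on 1419014_at, was dim at 59.3 and 25.2 in space flight and 14.2 and 5.18 in ground control. Again the groups did not overlap, and space flight array 1 was the high one. Its difference was 1.00 ± 0.60 (SE; 95% interval −0.37 to 2.36; limma adjusted p = 0.692), with 0.44 when space flight replicate 1 was left out and 1.52 when replicate 2 was. Slc4a1 on 1434502_x_at and 1416464_at and Rhd had their highest intensity on space flight array 2, while Rhag, Epb42 on 1417337_at and Ank1 on 1419421_at had theirs on array 1.

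Kel encodes the Kell protein, a zinc endopeptidase of the red cell surface that cleaves endothelin precursors. Its probe set 1449057_at was dim, with intensities of 44.9 and 65.8 in space flight and 61.1 and 35.1 in ground control. Each group held a higher and a lower array, so the values interleaved. The difference was −0.03 ± 0.64 (SE; 95% interval −1.50 to 1.44; limma adjusted p = 0.993), an interval that holds the differences of Rhag and Rhd as well. Its sign turned to 0.17 with the values as deposited.

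**Figure D3:**
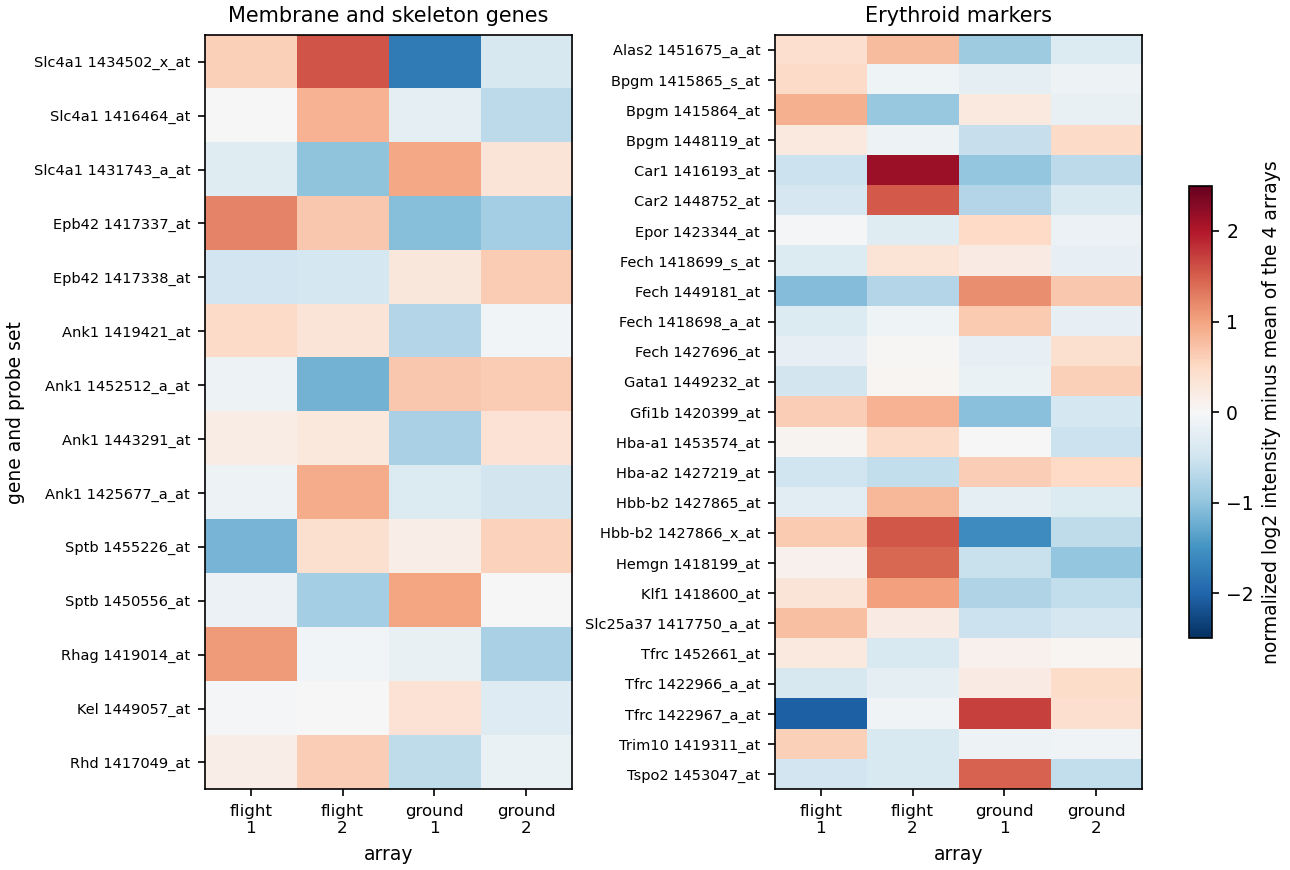
Normalized log2 intensity of each probe set minus its own mean over the 4 arrays (red above, blue below), for the membrane and skeleton genes on the left and the erythroid markers on the right. The Slc4a1 probe set at the top is lowest on ground control array 1 and highest on space flight array 2; Car1 and Car2 stand out on space flight array 2 alone.

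Some probe sets of these genes stood higher in the same comparison and others lower, and none passed the test. The stretches before the transcription starts of these genes are shown as a description. GATA1 and KLF1 are the transcription factors best known for switching on red cell genes, through GATA and CACCC-type words. RefSeq promoter windows (assembly GRCm38.p6) were found for 6 of the 8 genes, 8 windows in all, and those of Slc4a1 and Ank1 were not in the table used. Shown 5′ to 3′ on the gene's strand are the bases before the annotated gene span, with capitals for each GATA word (A or T, then GATA, then A or G, on either strand; none of those found overlapped another searched word). Epb42 and Rhd are shown as genes with a higher probe set, Kel as the gene with interleaved values. The other probe set of Epb42 stood lower, at −0.92. For Rhag a site of 30 bases is shown, because its word lies downstream of the outermost annotated start.
Epb42, chr2:121036878-121037127, minus strand: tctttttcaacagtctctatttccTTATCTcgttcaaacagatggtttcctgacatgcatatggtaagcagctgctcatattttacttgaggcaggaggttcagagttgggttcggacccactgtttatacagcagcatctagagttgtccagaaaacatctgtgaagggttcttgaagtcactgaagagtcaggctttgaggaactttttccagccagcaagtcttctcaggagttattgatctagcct
Rhd, chr4:134864286-134864535, plus strand: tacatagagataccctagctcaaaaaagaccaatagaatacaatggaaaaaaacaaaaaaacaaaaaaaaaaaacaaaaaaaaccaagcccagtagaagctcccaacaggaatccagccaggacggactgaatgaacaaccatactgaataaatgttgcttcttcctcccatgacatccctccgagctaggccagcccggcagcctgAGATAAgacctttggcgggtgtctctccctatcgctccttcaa
Kel, chr6:41704335-41704575, minus strand: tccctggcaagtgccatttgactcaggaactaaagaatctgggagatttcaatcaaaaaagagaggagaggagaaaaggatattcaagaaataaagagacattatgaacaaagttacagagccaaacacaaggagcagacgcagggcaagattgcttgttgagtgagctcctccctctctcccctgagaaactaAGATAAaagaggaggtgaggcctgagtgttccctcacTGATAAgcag
Rhag, chr17:40811106-40811135, plus strand: agtcctctgctcTTATCAacactatacagc

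A GATA word began 226 bases before the start in Epb42, 43 in Rhd and 31 in Rhag, and Kel held 2, beginning 56 and 19 bases before the start. The Sptb window held none. Epb41 held 1, in 1 of its 3 windows. A GATA word was thus in 5 of the 8 windows, and in 26.5% of the 32851 windows of 250 bases in the table. The CACCC-type word CCNCNCCC was in 3 of the 8, those of Sptb and 2 of Epb41, against 45.9% of all windows. The E-box word CANNTG was in 5 of the 8, against 66.2%. Kel had more GATA words than Epb42, Rhd or Rhag. Its groups overlapped, but its probe set was dim and its interval was wide, from −1.50 to 1.44. Any link between the number of words and the differences was not tested. Gata1 itself stood at −0.42 ± 0.61 with overlapping groups, and Klf1 at 1.36 ± 0.52 with both space flight arrays higher (SE; limma adjusted p = 0.884 and 0.506). A match is a description of these letters and not a bound site.

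**Figure D4:**
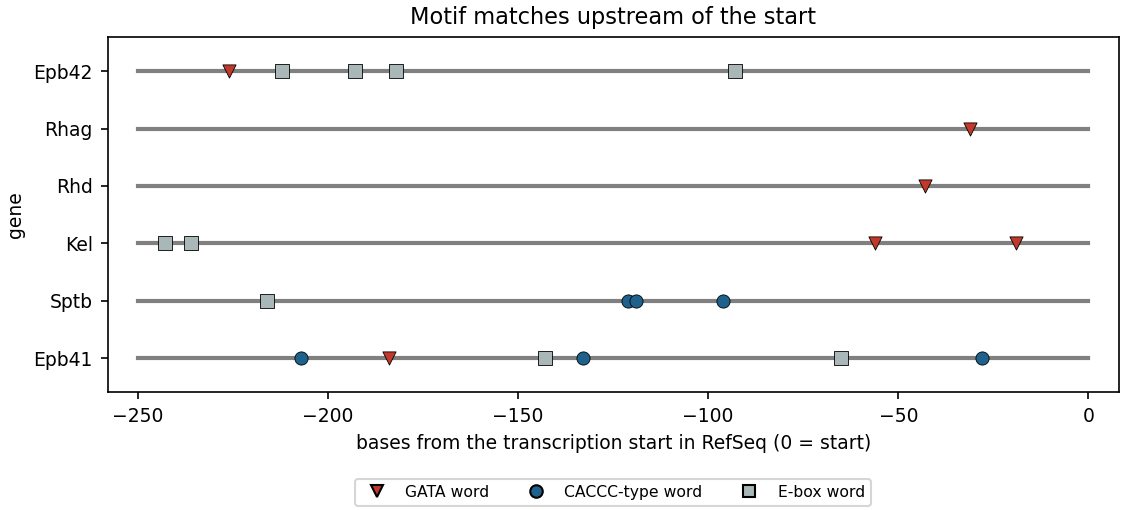
Position of GATA, CACCC-type and E-box words in the 250 bases before the RefSeq transcription start of 6 genes (1 window per gene, the first listed for Epb41). GATA words lie at 43 bases before the start in Rhd, 31 in Rhag, 226 in Epb42, and 56 and 19 in Kel; the Sptb window holds none.

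Other genes of the red cell membrane and skeleton showed no common direction. Of 26 listed genes 24 had a probe set. Their 58 probe sets had a median difference of 0.023. Of them 0 passed limma's test in either direction. At an unadjusted limma p under 0.05, 4 were higher and 4 lower, against 4.14% and 4.6% of all probe sets. The groups did not overlap for 11 with space flight above and 12 with it below, against 19.1% and 19.4% of all probe sets. The smallest p belonged to Tspan33, a tetraspanin of erythroid cells, whose probe set 1455618_x_at had 749 and 1143 in space flight against 298 and 283 in ground control. Its difference was 1.63 ± 0.34 (SE; limma adjusted p = 0.327), with 0.73 ± 0.50 on 1451608_a_at and −0.89 and 0.12 on its 2 dim probe sets. Mpp1, the p55 protein that binds protein 4.1, stood the other way on both of its probe sets, at −0.74 ± 0.19 and −2.31 ± 0.65 (SE; limma adjusted p = 0.388 and 0.405). On the first of them the intensities were 4129 and 3974 in space flight and 6890 and 6577 in ground control. Stomatin, Stom, had 9028 and 4684 in space flight and 3247 and 4239 in ground control on 1438910_a_at, a difference of 0.87 ± 0.32 (SE; limma adjusted p = 0.493), while the remaining 5 of this gene ran from −0.98 to 0.72. The tropomyosin gene Tpm3 stood at 0.65 ± 0.22 on 1436958_x_at (SE; limma adjusted p = 0.472), at 0.08 ± 0.18 on the probe set with its highest signal, and between −0.31 and 0.91 on its 3 others.

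The relatives of these genes that other tissues use were compared in the same way. They had probe sets for 19 of 21 genes, 55 in all, with a median difference of −0.17. Limma's test passed 0 of them. Its unadjusted p was under 0.05 for 3 higher and 2 lower, against 4.14% and 4.6% of all probe sets. The groups did not overlap for 8 with space flight above and 15 with it below, against 19.1% and 19.4% of all probe sets. The widely expressed spectrins Sptan1 and Sptbn1 stood at −0.31 ± 0.20 and −0.43 ± 0.21 on the probe sets with their highest signal (SE; limma adjusted p = 0.705 and 0.604), both with space flight below ground control, and Sptbn1 at 1.06 ± 0.64 on the dim 1451830_a_at. The anion exchanger Slc4a2, a relative of band 3 found in many tissues, had 2236 and 1302 in space flight and 1048 and 996 in ground control. Its difference was 0.78 ± 0.28 (SE; limma adjusted p = 0.492), so it stood on the same side as the first Slc4a1 probe set. Slc4a3 stood at −1.77 ± 0.57 and −0.19 ± 0.46 on dim probe sets. Ank2 stood at 1.65 ± 0.60 on 1459317_at (SE) and between −0.75 and 1.29 on its 5 other probe sets, all of them dim. Epb41l2, a relative of Epb41, stood at −1.77 ± 0.52 on the dim 1433491_at, at 0.55 ± 0.60 on 1433492_at (SE), and between those values on its 3 other probe sets.

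**Figure D5:**
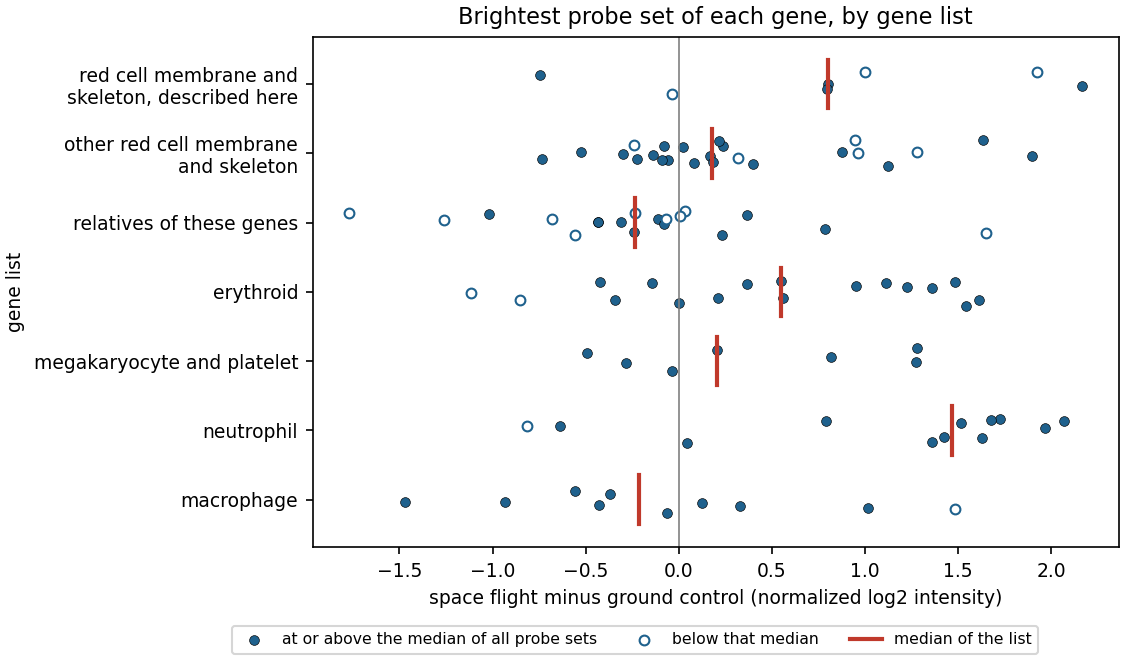
Difference of the brightest probe set of each gene, by gene list, with the list's median in red; open points are dim probe sets. The 7 genes described here have a median of 0.80, other red cell membrane genes 0.18, relatives of these genes −0.24, erythroid markers 0.55 and neutrophil markers 1.47. Over all probe sets of each list, not drawn here, the medians are 0.62, 0.023, −0.17, 0.10 and 1.47 in the same order.

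Markers of whole cell types were measured on the same arrays. Erythroid markers had probe sets for 17 of 22 genes. Both space flight arrays were above ground control for 9 of their 25 probe sets, against 19.1% of all probe sets. Both were below for 4, against 19.4%. The summed deposited intensity of the erythroid markers, not scaled between arrays, was 14612 and 14513 in space flight and 16308 and 14194 in ground control. No value was 0. Over all probe sets such sums were 38935600 and 46331600 in space flight and 38765900 and 40061200 in ground control. Fech and Tfrc, genes that many cell types use, were set apart after the values were seen. The sums of the 18 remaining probe sets were 4419 and 5235 in space flight and 2494 and 2532 in ground control. Slc25a37 alone had 1522 and 961 against 623 and 649. The higher sums without Fech and Tfrc follow in part from that choice, so they are no test of the list. Limma's test passed 0 of the 25. Its unadjusted p was under 0.05 for 6 higher and 4 lower, against 4.14% and 4.6% of all probe sets. Alas2, the first enzyme of haem synthesis in red cells, stood at 1.23 ± 0.41, Hemgn at 1.54 ± 0.57, and Gfi1b, a repressor of erythroid and platelet cells, at 1.48 ± 0.59 (SE; limma adjusted p = 0.465, 0.496 and 0.530). The beta-globin gene Hbb-b2 stood at 2.20 ± 0.61 on 1427866_x_at but at 0.56 ± 0.44 on 1427865_at, where the groups overlapped. Of the alpha-globin genes, Hba-a1 stood at 0.55 ± 0.59 and Hba-a2 at −1.12 ± 0.46 on a dim probe set, with space flight below ground control (SE; limma adjusted p = 0.830 and 0.542). The erythropoietin receptor gene Epor stood at −0.34 ± 0.58. Globin genes are close copies, and signal of 1 copy may not be told from that of another.

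Counts here are of probe sets whose groups did not overlap, against 19.1% above and 19.4% below over all probe sets. Neutrophil markers, all 12 with a probe set, had space flight above for 9 and below for 1. Their summed deposited intensity was 79589 and 145135 in space flight and 46588 and 51647 in ground control. Macrophage markers had space flight below for 8 of their 13 probe sets and above for 2. Their deposited sums were 111139 and 156182 against 139008 and 152269, with space flight array 2 the brighter array over all probe sets. On the normalized log2 scale the macrophage means were 10.45 and 10.51 in space flight and 10.66 and 10.77 in ground control. Of 9 megakaryocyte and platelet genes 7 had a probe set, with space flight above for 3 of 7 and below for 0. By sign alone, 4 of these differences were above 0 and 3 below. Their deposited sums were 9755 and 11176 against 10058 and 11443, and their normalized means 8.78 and 9.01 against 8.25 and 8.75. The part of these cell types in the differences of the membrane genes was not tested. By the same count, mast cell and basophil markers had space flight above for 2 and below for 3 of 8 probe sets. B cell markers had it above for 3 of 4, and T cell markers overlapped for all 3. Stromal cell markers had it above for 2 and below for 4 of 14.

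The probe sets whose pattern over the 4 arrays lay nearest to that of Slc4a1 on 1434502_x_at were sought among those that were not dim, by the root mean square distance between values centred on each probe set's own mean. The nearest was Cxcl3, a neutrophil chemokine gene, at a distance of 0.10 on the log2 scale, followed by Hbb-b2 on 1427866_x_at at 0.16, the neutrophil granule gene Lcn2 at 0.19, Dynll1 at 0.22 and Sox4 at 0.24. All 5 had their lowest value on ground control array 1 and their highest on space flight array 2. Hbb-b2, Dynll1 and Sox4 had ground control means of 5.95, 5.54 and 6.17, below the dim limit of 6.40. They passed the filter only through their space flight values, so the filter itself favoured patterns high in space flight. Over 4 arrays such likeness is a description with no test.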

How the data were processed

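For every array and probe set the authors deposited 1 linear intensity, made with GCOS per the submitters' processing notes (version not stated); the summarising algorithm is not given in the sources used here. The intensities had 1 common trimmed mean per array, 500.004 with 2% taken off each end. The number of arrays limits the precision.

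Control probe sets (64) were left out. log2(intensity + 16) was quantile normalized, since the array medians differed by up to 0.385, and fitted in limma 3.58.1 (R 4.3.3; lmFit, eBayes with an intensity trend, two-sided) over all 45037 probe sets with no filter on dim ones; residual degrees of freedom were 2 and moderated ones 8.55. The procedure was run on simulated data with independent normal noise at the fitted variances. That run cannot show how it copes with effects of arrays or RNA quality. Of these probe sets, 34945 had 1 gene symbol, 932 several and 9160 none; genes were named from the first kind only, and 0 symbols changed through RefSeq identifiers. Promoter words were searched in Python 3.11.15, and figures drawn with matplotlib 3.10.9.

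The members and gene lists were chosen with earlier results of these data known. Each member probe set was described; of related lists, the 4 genes of smallest p and 3 of 5 genes set for contrast (Sptan1, Sptbn1, Slc4a2) were named, the others being not reported here, and other markers were named after their values were seen. Alternatives were other array scalings, pseudocounts, a filter on dim probe sets, 1 probe set per gene, no trend, a replicate block and leaving out each array.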

Additional observations from a re-analysis of the deposited data

How the results depend on the processing

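Of 166 values of member probe sets under the alternatives, 160 kept their direction and their side of the threshold, 1 passed it and 5 changed sign. The sign changes touched 3 probe sets, of Ank1, Sptb and Kel, with differences of 0.44, −0.75 and −0.03 in the reported fit. Of these only that of Sptb was not dim. With 1 array left out, Ank1 on 1443291_at ran from −0.15 (without ground control replicate 1) to 1.03, Sptb on 1455226_at from −1.55 to 0.036 (without space flight replicate 1), and Kel from −0.38 to 0.31, above 0 without space flight replicate 1 (0.0030) or ground control replicate 1; Kel was also at 0.17 with values as deposited. The cause was not tested. The count of all probe sets called was 0 higher and 0 lower in the reported fit. It was 4 and 0 with values as deposited, 6 and 1 with a pseudocount of 1, and 10 and 1 without dim probe sets, where 22519 were tested. It was 0 and 0 with 1 array left out, and no member was called in any of these. The lone array of a group is then assumed to vary like the other group. When arrays were only shifted to a common median, the middle difference over all probe sets moved to −0.11, and the first Slc4a1 probe set stood at 1.98.

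The labels give replicate numbers in both groups but name no batch shared by same-numbered arrays. The deviations of same-numbered arrays correlated at 0.027 across probe sets, which cannot show whether they shared any handling. With the replicate block, 118 probe sets were higher and 113 lower, and 1 member was called, Slc4a1 on 1434502_x_at at 2.17 (limma adjusted p = 4.92e-05, and 0.145 to 1 under its other alternatives). The block leaves fewer residual degrees of freedom than the 2 of the reported fit, while the moderated ones were 19.6. The p values of the block fit thus rest mostly on the variance pooled over probe sets.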

Other observations

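Within the erythroid list, probe sets of 2 genes of iron and haem use stood lower in space flight. Ferrochelatase, Fech, which puts iron into haem, had 552 and 671 in space flight and 2648 and 1868 in ground control on 1449181_at, a difference of −1.82 ± 0.28 (SE; limma adjusted p = 0.184; rank 31 of 45037 by p). Its probe set with the highest signal, 1418699_s_at, stood at 0.00084 ± 0.28 with overlapping groups, and its other 2 probe sets stood at −0.45 and −0.19. The transferrin receptor gene Tfrc stood at −0.66 ± 0.28 on 1422966_a_at, at −2.14 ± 0.83 on 1422967_a_at and at −0.14 ± 0.24 on 1452661_at. Both genes are used by many cell types and were named after their values were seen.

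The carbonic anhydrase genes Car1 and Car2 were high on 1 array. Car1 had 51.1 and 421 in space flight and 30.1 and 46.3 in ground control, and Car2 had 116 and 488 against 84.2 and 114. Space flight array 2 was the high one for both, and the other 3 arrays lay close together. The differences were 1.61 ± 0.87 and 1.11 ± 0.66 (SE; limma adjusted p = 0.651 and 0.689).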
